A study of Mus musculus with 7 samples.

Results

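The 10 genes described here are the Smad family of signal transducers (Smad1, Smad2, Smad3, Smad4, Smad5, Smad6, Smad7 and Smad9) and Id1 and Id3, a pair of genes that Smads switch on. They were chosen by gene symbol, from the 42689 genes to which the transcripts of the deposited tables were assigned. RNA was sequenced from hindlimb tendon of mice of C57BL/6 background, in 7 libraries. The study asked what the kinase TAK1 does in heterotopic ossification, the growth of bone in soft tissue after injury. In the tenotomy group (n = 2) the Achilles tendon had been cut at its midpoint and the back burned over 30% of the body surface (60 °C for 18 s), and tissue between calf muscle and heel was collected after 3 weeks. Contralateral tendon (n = 3) came from the uncut hindlimb of mice with the same burn and tenotomy, and so shares the burn and any systemic response to it. Uninjured tendon (n = 2) came from wild-type mice with neither injury. The injured mice had isoflurane anaesthesia and buprenorphine. The labels name no engineered allele, inhibitor, sex or age. They do not say whether tenotomy and contralateral libraries came from the same animals, so p-values measure the spread between these libraries only.

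Smads carry the signal of the transforming growth factor β (TGF-β) superfamily from the cell surface to the nucleus. Type I receptors phosphorylate receptor-regulated Smads, Smad1, Smad5 and Smad9 after bone morphogenetic proteins (BMPs) and Smad2 and Smad3 after TGF-β and activins. These then join the common mediator Smad4 and act on genes. Smad6 and Smad7 are themselves induced by the pathway and inhibit it, and the Id genes are classic direct targets of the BMP branch. The Id proteins bind E proteins and hold cells back from differentiation. TAK1 is activated by the same receptors in a branch that does not pass through Smads, and BMP signalling is a known driver of heterotopic ossification. The RNA level of a Smad does not report its phosphorylation.

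The regulatory DNA just before the start of 3 members is shown as examples. Smad5 and Smad9 are receptor-regulated Smads of the same branch that lay on opposite sides of contralateral tendon at the cut site, and Smad6 is an inhibitor of that branch. Each line gives the 250 bases before the RefSeq start on the gene's own strand, 5′ to 3′, GRCm38.p6. For Smad5 (chr13:56702760-56703009, plus strand) the first of 3 RefSeq starts is used. Smad9 is at chr3:54755332-54755581 (plus strand) and Smad6 at chr9:64022060-64022309 (minus strand). Capitals mark matches to GGCGCC, a GC-rich element that Smads can bind and its own reverse complement, or to CAGAC on either strand (CAGAC or GTCTG), the core of the Smad binding element.
Smad5: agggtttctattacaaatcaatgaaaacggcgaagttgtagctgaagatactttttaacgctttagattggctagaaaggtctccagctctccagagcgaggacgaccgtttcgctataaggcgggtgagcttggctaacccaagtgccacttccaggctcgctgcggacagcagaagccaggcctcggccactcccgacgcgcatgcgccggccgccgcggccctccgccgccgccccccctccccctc
Smad9: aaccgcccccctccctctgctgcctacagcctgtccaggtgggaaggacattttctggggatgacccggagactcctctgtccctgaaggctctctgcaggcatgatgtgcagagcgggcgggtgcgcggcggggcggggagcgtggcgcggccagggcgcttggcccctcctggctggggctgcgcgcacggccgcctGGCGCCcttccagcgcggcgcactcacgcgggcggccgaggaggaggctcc
Smad6: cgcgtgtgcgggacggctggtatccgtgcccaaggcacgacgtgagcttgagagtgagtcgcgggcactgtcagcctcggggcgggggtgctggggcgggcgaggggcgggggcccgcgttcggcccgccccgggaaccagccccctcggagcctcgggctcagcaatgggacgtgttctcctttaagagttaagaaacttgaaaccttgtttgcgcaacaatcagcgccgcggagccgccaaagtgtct
Only the Smad9 window of these 3 held a match, GGCGCC at 51 bases before the start. Of 32851 RefSeq promoter windows of the same length, 9.59% held GGCGCC, 42.2% held CAGAC or GTCTG and 3.60% held both. A match is a description of letters and not of binding. The windows of the other Smad5 starts held GGCGCC at 19 bases and CAGAC at 21 bases before the start, so the choice of start decides what is found. Of the members not shown whose windows were used, Id3 held CAGAC at 167 and GTCTG at 68 bases. Smad1 and Smad3 held no match.

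Library totals ranged from 25927171 to 36725106 estimated counts, of which 4934057 to 8375626 lay outside the 5 most abundant features, which took 76.4% to 81.4% of a library. Counts of single members ran from 5 for Smad9 to 398 for Smad5, both at the tenotomy site. The libraries labelled uninjured stood apart from each other, with a Euclidean distance over log2 CPM of 114.0, against 54.5 between the tenotomy libraries and 56.7 to 65.2 between contralateral ones. Uninjured replicate 1 lay 59.6 and 61.1 from the tenotomy libraries, and uninjured replicate 2 lay 64.5 to 67.4 from the contralateral ones. Whether a label was exchanged, or the tissue taken differed, was not tested, and every comparison with the group labelled uninjured carries this limit. Levels below are CPM, counts relative to library size after scaling by the trimmed mean of M values, and differences are log2 fold changes from edgeR's quasi-likelihood fit of all 7 libraries. Adjusted p-values are Benjamini-Hochberg values over the 16028 genes and unmatched transcripts that passed the filter on low counts. All 10 members passed it, and they were measured in every library. Since these are bulk tissue samples, fewer cells of a type and less RNA per cell cannot be told apart.

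At the tenotomy site, Smad1 was higher and Smad9 lower than in contralateral tendon. These were the 2 of 10 members past an adjusted p-value of 0.05, where 29.0% of all genes passed, 13.6% higher and 15.4% lower. The inhibitory Smads and Id1 also lay lower in both tenotomy libraries than in all contralateral ones, but missed the threshold in this fit. An unadjusted p-value under 0.05 was reached by 5 of 10 (43.3% of all genes), Smad1 and Smad5 higher (21.0%) and Smad6, Smad7 and Smad9 lower (22.3%). In 9 of 10 members the libraries of the 2 groups did not overlap, 4 being higher and 5 lower at the tenotomy site, against 63.7% of all genes (31.9% higher and 31.8% lower). The median log2 fold change of the members was -0.11, beside -0.0012 for all genes. The summed level of the 10 genes after this scaling ran from 38.5 to 41.9 CPM in the 7 libraries. Smad3, Smad4 and Smad5 had the highest levels in each library, so this sum says little about the members with lower levels.

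**Figure D1:**
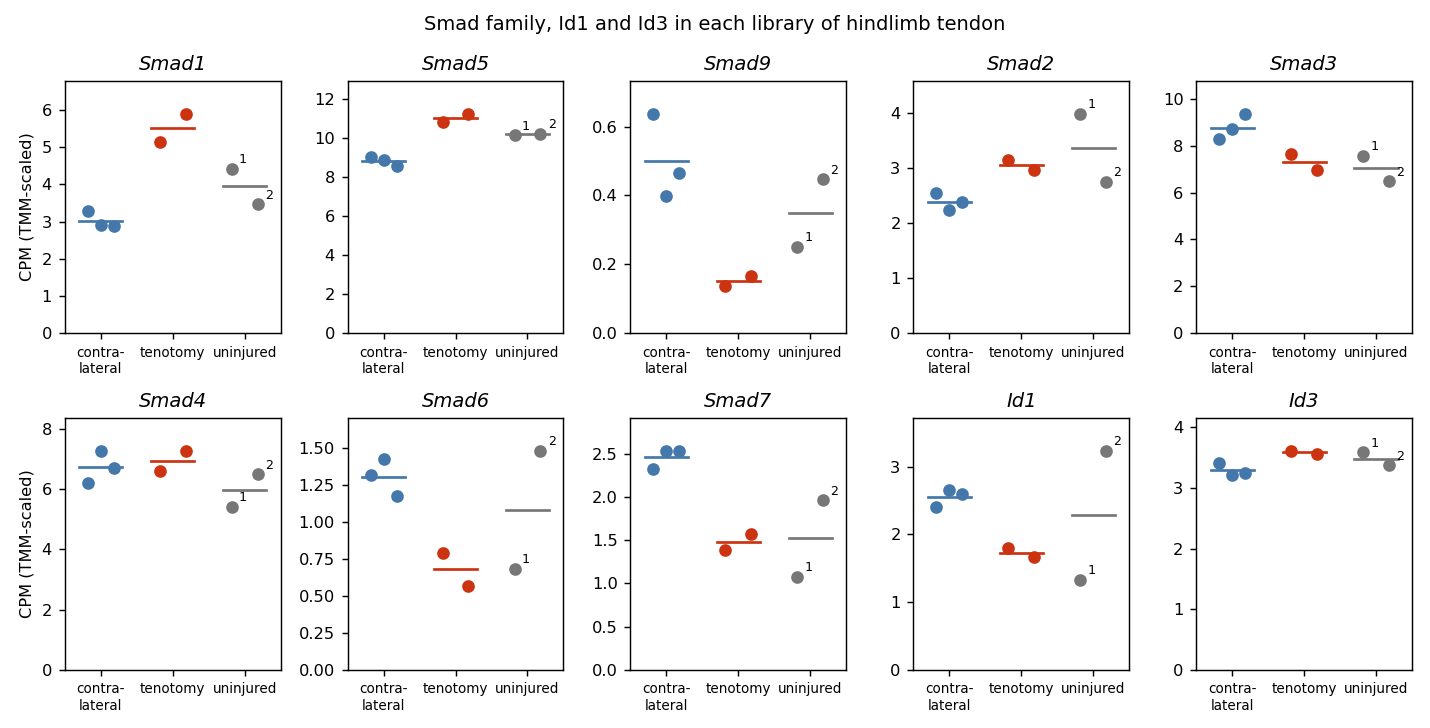
Level of each gene in every library. The vertical axes give CPM after scaling, each starting at 0, points are libraries, bars are group means, and the labels 1 and 2 mark the uninjured replicates. Smad1 is higher and Smad9 lower in both tenotomy libraries than in all contralateral ones, and for Smad6, Smad7 and Id1 uninjured replicate 1 lies with or below the tenotomy libraries and uninjured replicate 2 above them.

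Smad1 (ENSMUSG00000031681.16; chromosome 8, 79338395 to 79399518, minus strand, GRCm38) was the BMP-branch Smad that rose. Its level was 3.30, 2.90 and 2.88 CPM in the contralateral libraries, 5.14 and 5.90 CPM in the tenotomy libraries, and 4.42 and 3.48 CPM in uninjured replicates 1 and 2. The tenotomy libraries were the highest of the 7, and the uninjured ones lay between both other groups. The rise over contralateral tendon was 0.87 log2 units (SE 0.16) with an edgeR adjusted p of 0.0167, a 1.82-fold change. It was the 1 member that also passed with DESeq2 (adjusted p = 0.00764, 23.4% of all genes called) and with limma-voom (adjusted p = 0.0191, 27.9%). It missed the threshold when any contralateral or tenotomy library was left out (log2 fold change 0.76 to 0.96), as did all genes. Without a contralateral library, 3 to 4 members had an unadjusted edgeR p-value under 0.05, beside 5413 to 6148 of the 15701 to 16060 genes tested. The edgeR adjusted p of Smad1 was then 0.0501 to 0.0642. Of its 3 transcripts in the tables, the protein-coding one of 3099 bases held 75.4% of its counts, with 65.0, 71.6 and 69.3 estimated counts in contralateral and 146.8 and 140.9 in tenotomy libraries.

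Smad5 (ENSMUSG00000021540.16; chromosome 13, 56703010 to 56742377, plus strand), which acts in parallel with Smad1, was at 9.03, 8.88 and 8.54 CPM in contralateral, 10.8 and 11.2 CPM in tenotomy, and 10.1 and 10.2 CPM in uninjured libraries. The 3 groups did not overlap, although the steps were small. Tenotomy exceeded contralateral tendon by 0.32 in log2 (SE 0.13; edgeR adjusted p = 0.094). With upper quartile scaling, which called 29.9% of all genes, the adjusted p was 0.0448.

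Smad9 (ENSMUSG00000027796.2; chromosome 3, 54755582 to 54801257, plus strand), which had the lowest level per length of the 10 genes, fell. Its counts were 17, 14 and 15 in contralateral, 5 and 5 in tenotomy, and 7 and 13 in uninjured libraries, or 0.637, 0.398 and 0.464, then 0.136 and 0.167, then 0.252 and 0.447 CPM. Both tenotomy libraries were below all others. The exact 95% Poisson interval of 5 counts runs from 1.62 to 11.7, and that of 14 counts from 7.65 to 23.5, so single libraries overlap within counting error. Its fold change in log2 was -1.69 (SE 0.46; edgeR adjusted p = 0.0307). It missed the threshold with DESeq2 (-1.71, adjusted p = 0.0676), with limma-voom (-1.60, adjusted p = 0.0555), and in edgeR when any contralateral or tenotomy library was left out (-1.84 to -1.50, adjusted p = 0.0663 to 0.182), while the fold remained about as large.

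In the TGF-β branch, Smad2 lay higher and Smad3 lower at the cut site, and neither passed the test. Smad2 (ENSMUSG00000024563.16; chromosome 18, 76241580 to 76310963, plus strand) was at 2.55, 2.25 and 2.38 CPM in contralateral and 3.16 and 2.97 CPM in tenotomy libraries, with 3.99 and 2.75 CPM in uninjured replicates 1 and 2. The tenotomy libraries were above the contralateral ones, but the highest value was that of uninjured replicate 1. Its log2 fold change, 0.36 (SE 0.19; edgeR adjusted p = 0.184), missed the threshold. Smad3 (ENSMUSG00000032402.12; chromosome 9, 63646767 to 63757994, minus strand) was at 8.28, 8.71 and 9.37 CPM in contralateral, 7.64 and 6.97 CPM in tenotomy, and 7.58 and 6.50 CPM in uninjured libraries. All contralateral values lay above all others, by small margins (log2 fold change of tenotomy over contralateral -0.27, SE 0.14; edgeR adjusted p = 0.199).

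Smad4 (ENSMUSG00000024515.13; chromosome 18, 73639009 to 73703780, minus strand), the partner shared by both branches, was at 6.22, 7.29 and 6.71 CPM in contralateral, 6.61 and 7.27 CPM in tenotomy, and 5.43 and 6.50 CPM in uninjured libraries. Contralateral and tenotomy libraries overlapped, and the difference of 0.04 in log2 (SE 0.15; edgeR adjusted p = 0.869) changed sign in 4 of 17 alternatives. It was -0.28 with length-scaled TPM (TPM being an abundance per transcript length), -0.032 with the series of title numbers as covariate, -0.017 without contralateral replicate 1 and -0.036 without tenotomy replicate 2. The covariate fit, like that without tenotomy replicate 2, sets tenotomy replicate 1 alone against contralateral tendon.

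Both inhibitory Smads had lower values at the cut site than in any contralateral library. Smad6 (ENSMUSG00000036867.7; chromosome 9, 63953076 to 64022059, minus strand), which mainly restrains BMP signalling, was at 1.31, 1.42 and 1.18 CPM in contralateral and 0.789 and 0.567 CPM in tenotomy libraries. Uninjured replicate 1 was at 0.683 CPM, between the tenotomy libraries, and replicate 2 at 1.48 CPM, the highest of all. Tenotomy against contralateral gave -0.93 in log2 (SE 0.35; edgeR adjusted p = 0.0797). With length-scaled TPM, where 19.6% of all genes passed, it was -2.12 (edgeR adjusted p = 0.021). Its 417-base transcript had 3, 1.71 and 2.62 estimated counts in the contralateral libraries and 0 in both tenotomy libraries.

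Smad7 (ENSMUSG00000025880.11; chromosome 18, 75367529 to 75395935, plus strand), an inhibitor of both branches, was at 2.32, 2.53 and 2.54 CPM in contralateral and 1.39 and 1.57 CPM in tenotomy libraries. Uninjured replicate 1, at 1.08 CPM, was the lowest library, and replicate 2 was at 1.96 CPM. Its difference was -0.74 in log2 (SE 0.25; edgeR adjusted p = 0.0571). It passed with protein-coding transcripts only (-0.78, edgeR adjusted p = 0.048, 32.4% of all genes called) and with genes of low counts kept (-0.75, edgeR adjusted p = 0.0466, 17.3%). With the series of title numbers as covariate the difference was -0.83, in a fit that sets tenotomy replicate 1 alone against contralateral tendon. It was -0.033 with length-scaled TPM (edgeR adjusted p = 0.964).

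Of the Id genes, Id1 (ENSMUSG00000042745.9; chromosome 2, 152736251 to 152737410, plus strand) was at 2.40, 2.65 and 2.60 CPM in contralateral and 1.80 and 1.67 CPM in tenotomy libraries. The uninjured libraries held the extremes, 1.33 CPM in replicate 1 and 3.23 CPM in replicate 2. Tenotomy against contralateral gave -0.56 in log2 (SE 0.33; edgeR adjusted p = 0.234). Its transcript of 934 bases held 83.7% of its counts.

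Id3 (ENSMUSG00000007872.3; chromosome 4, 136143497 to 136145755, plus strand) was the steadiest member, with 3.41, 3.22 and 3.25 CPM in contralateral, 3.62 and 3.57 CPM in tenotomy, and 3.59 and 3.37 CPM in uninjured libraries. Its highest library exceeded its lowest 1.12-fold, whereas that ratio was 4.68 for Smad9, 2.61 for Smad6, 2.43 for Id1 and 2.35 for Smad7. For tenotomy against contralateral tendon it gave 0.13 in log2 (SE 0.13; edgeR adjusted p = 0.502).

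The count of members past the threshold was higher where fewer uninjured libraries entered the fit. The median dispersion over genes was 0.0272 with them and 0.0087 without. In the fit of tenotomy and contralateral libraries alone, 7 of 10 members passed, where 46.1% of all genes did. Smad1 and Smad5 were higher (22.1% of all genes), and Smad3, Smad6, Smad7, Smad9 and Id1 were lower (24.1%). The edgeR adjusted p-values there were 0.0164 for Smad5, 0.0498 for Smad3, 0.00848 for Smad6, 0.00239 for Smad7 and 0.00993 for Id1. With uninjured replicate 1 left out of the fit of all groups, 6 of 10 passed (42.9% of all genes), and likewise 6 of 10 without replicate 2 (43.5%).

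**Figure D2:**
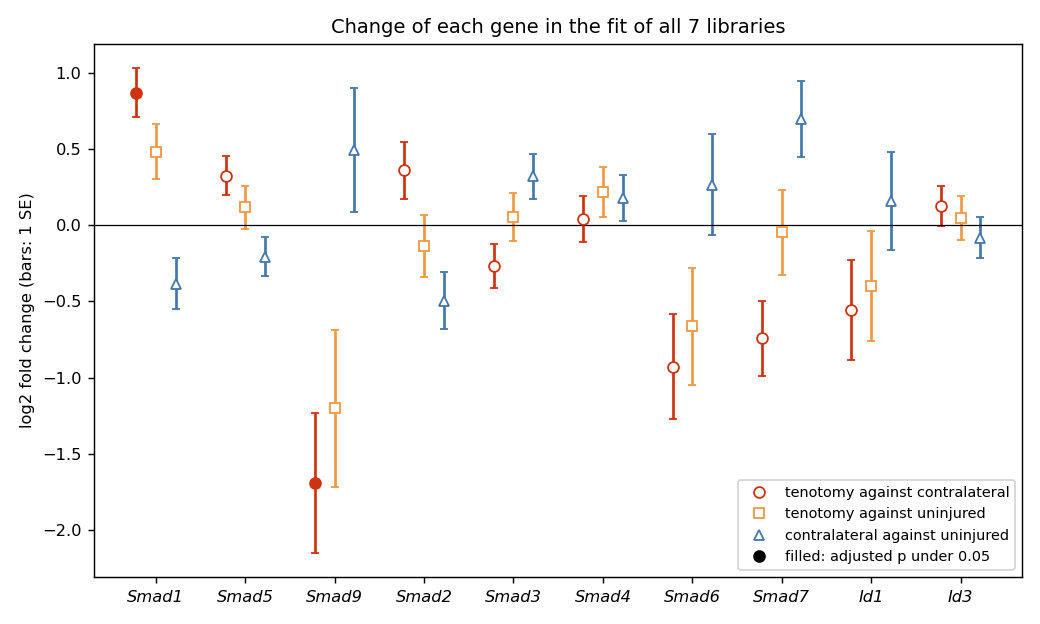
Log2 fold change of each gene in the 3 comparisons, from the fit of all 7 libraries. Bars are 1 standard error, and filled symbols passed an adjusted p-value of 0.05. Smad1 (0.87) and Smad9 (-1.69) passed between tenotomy and contralateral tendon, and no gene passed in either comparison with the uninjured group.

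Levels of different genes were compared per transcript length. Each gene's TPM was expressed as a share of the summed TPM of the 10 genes in its library, a quantity that no scaling between libraries changes. Id3 held 19.5% ± 2.02 (SD, n = 7) and Smad4 18.7% ± 2.75, followed by Id1 with 15.1% ± 3.57 and Smad3 with 13.8% ± 2.77, neighbours that do not differ beyond their spread. Smad5 (9.32% ± 1.80), Smad2 (7.49% ± 2.11) and Smad1 (7.44% ± 2.67) followed, with overlapping spreads over the 3 groups. Smad5 was nonetheless above Smad1 in each of the 7 libraries, while Smad2 changed places with both. Counting protein-coding transcripts only, Smad1 (12.5%) was above Smad5 (11.6%) in tenotomy replicate 2. Smad7 held 4.8% ± 1.75, Smad6 3.52% ± 1.90 and Smad9 0.340% ± 0.159. With protein-coding transcripts only, Smad4 held 13.1% and Id1 19.5%. That setting leaves out the Smad4 transcripts of 430 and 487 bases.

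The order differed between groups. Smad1 held 5.25% ± 0.55 (SD, n = 3) in contralateral tendon, rank 9 of 10 and within the spread of Smad6 (5.29% ± 0.608) and Smad7 (5.49% ± 1.39). At the tenotomy site Smad1 held 10.5% ± 1.55 (n = 2), rank 6, while Smad6 held 1.28% ± 0.221. Smad2 was above Smad1 in all 3 contralateral libraries (6.08% ± 0.263) and below it in both tenotomy libraries (8.11% and 8.12%, against 9.42% and 11.6% for Smad1). These orders depended on the transcripts counted. With protein-coding transcripts only, contralateral Smad1 (5.73%) was rank 7, above Smad6 (4.14%) and Smad7 (3.91%), and tenotomy Smad1 was rank 4. Smad2 was then above Smad1 in tenotomy replicate 1 (10.6% and 10.3%) and below it in replicate 2 (10.2% and 12.5%). Smad9 was last in every group.

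**Figure D3:**
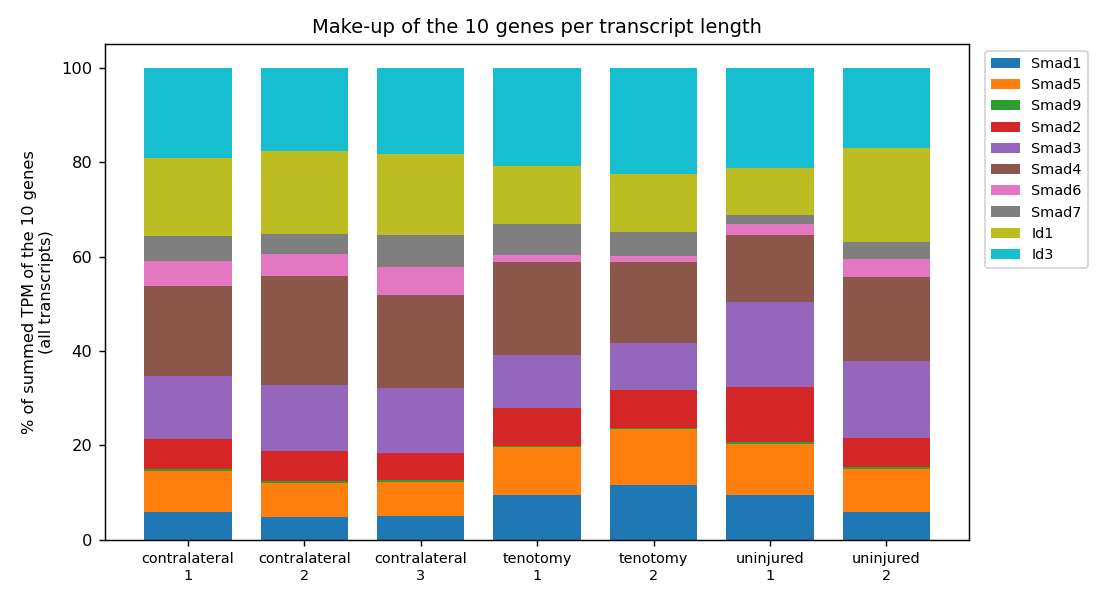
Share of each gene in the summed TPM of the 10 genes, in percent, for each of the 7 libraries. Smad1 and Smad2 take wider bands and Id1 and Smad6 narrower ones in the tenotomy libraries and uninjured replicate 1 than in the contralateral libraries and uninjured replicate 2.

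Ratios within a library showed a shift in make-up. Among the BMP-branch Smads, Smad1 held 38.9%, 38.8% and 40.0% of the TPM in contralateral, 47.5% and 49.1% in tenotomy, and 45.8% and 37.9% in uninjured libraries. Smad9 held 2.9% to 4% in contralateral but 0.699% and 0.751% in tenotomy libraries. The inhibitory Smads summed to 0.702, 0.714 and 1.02 times the BMP-branch Smads in contralateral, 0.403 and 0.264 times in tenotomy, and 0.209 and 0.481 times in uninjured libraries. This ratio was thus lower in both tenotomy libraries and in both uninjured libraries than in any contralateral one. The BMP-branch Smads summed to 0.615 to 0.766 times Smad2 plus Smad3 in contralateral, 1.03 and 1.31 times in tenotomy, and 0.696 and 0.684 times in uninjured libraries. Id1 was 0.860, 0.997 and 0.947 times Id3 in contralateral, 0.601 and 0.544 times in tenotomy, and 0.473 and 1.17 times in uninjured libraries. With protein-coding transcripts only, Id1 exceeded Id3 in contralateral tendon, at 1.07, 1.26 and 1.30 times, and was 0.802 and 0.748 times Id3 at the tenotomy site. For each of these ratios, tenotomy and contralateral libraries did not overlap, also with protein-coding transcripts only. They are given as descriptions without a test.

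Against the uninjured group, 0 of 10 members passed at the tenotomy site, as did 0% of all genes in edgeR. Without adjustment, 2 of 10 had a p-value under 0.05 (10.9% of all genes), Smad1 higher (3.27%) and Smad9 lower (7.59%). Libraries of these groups did not overlap for 4 of 10 members (40.5% of all genes), with Smad1, Smad4 and Smad5 higher (20.1%) and Smad9 lower (20.4%) at the tenotomy site. Limma-voom also called 0 of 10 (0% of all genes), as did edgeR with no filter on low counts (0.0515%). DESeq2 gave an adjusted p-value for 3 members, Smad3, Smad4 and Smad5, and called 0 of them, where 4.87% of the 2977 genes with a value passed. The log2 fold change of tenotomy over uninjured was 0.48 (SE 0.18) for Smad1 and -1.20 (SE 0.52) for Smad9, with edgeR adjusted p-values of 0.45 and 0.46. Contralateral against uninjured tendon likewise gave 0 of 10 members in edgeR and limma-voom (0% of all genes in each). DESeq2 gave no adjusted p-value for Smad6, Smad7, Smad9 and Id1 and called 0 of the other 6 members, where 3.49% of the 6394 genes with a value passed. Without adjustment, 2 of 10 had a p-value under 0.05 (19.2% of all genes), Smad7 with 0.69 in log2 (SE 0.25; 8.72% higher) and Smad2 with -0.49 (SE 0.19; 10.5% lower). Libraries did not overlap for 5 of 10 members (35.5%), with Smad3 and Smad7 higher (18.9%) and Smad1, Smad2 and Smad5 lower (16.6%) in contralateral tendon.

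These counts differed with the uninjured library that was kept. Without uninjured replicate 1, 3 of 10 members passed at the tenotomy site against uninjured tendon, where 25.1% of all genes did. They were Smad1 (0.67 in log2, edgeR adjusted p = 0.0173), Smad6 (-1.10, 0.021) and Id1 (-0.89, 0.0058). Without uninjured replicate 2, 0 of 10 passed there (0.0830% of all genes), and Smad6 and Id1 had log2 fold changes of 0.0090 and 0.39. Between contralateral and uninjured tendon the reverse held. Without replicate 2, 5 of 10 passed, where 32.0% of all genes did. Smad6 (0.93, edgeR adjusted p = 0.0498), Smad7 (1.20, 0.00213) and Id1 (0.94, 0.00631) were higher and Smad1 (-0.55, 0.0284) and Smad2 (-0.74, 0.00636) lower in contralateral tendon. Without replicate 1, 0 of 10 passed (0.617% of all genes). In these fits the remaining uninjured library is assumed to vary like the other groups.

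For most members the uninjured libraries differed in the direction in which tenotomy differed from contralateral tendon, and the share was near that of all genes. Uninjured replicate 1 minus replicate 2 was, in log2 CPM, 0.34 for Smad1, -0.70 for Smad9, -1.05 for Smad6, -0.83 for Smad7 and -1.24 for Id1. Tenotomy minus contralateral means were 0.85, -1.37, -0.90, -0.72 and -0.54 for the same genes. The sign was shared by 7 of 10 members, and by 77.3% of all genes. Smad3 and Smad5 were among the exceptions, with 0.22 and -0.01 between the uninjured libraries against -0.26 and 0.32. Smad4 had -0.26 against 0.04.

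Summed markers of muscle, macrophages and leukocytes, cartilage, adipocytes and proliferation split the uninjured libraries, replicate 1 toward tenotomy and replicate 2 toward contralateral tendon. The tendon sums of both replicates, mostly type I collagen, lay far above contralateral tendon. The endothelial sums of both lay above the tenotomy site, but these sums rest in part on Vwf, which varied within groups. The counts of markers called stand beside 13.6% of all genes higher and 15.4% lower at the tenotomy site. The summed level of 15 skeletal muscle markers was 9068 to 11740 CPM in contralateral, 956.6 and 955.0 CPM in tenotomy, and 1187 and 8542 CPM in uninjured libraries, and 15 of 15 were lower at the tenotomy site past the threshold. Of 13 macrophage and leukocyte markers 12 were higher, with sums of 34.0 to 43.0 CPM in contralateral, 149.1 and 152.9 in tenotomy, and 151.8 and 43.5 in uninjured libraries. Cartilage markers, of which 9 of the 10 tested were higher, summed to 36.7 to 66.0 CPM in contralateral, 461.2 and 459.9 in tenotomy, and 235.9 and 70.0 in uninjured libraries. Matn1 had at most 1 count in any library. Adipocyte markers, 4 of 8 lower, summed to 173.0 to 234.4 CPM in contralateral, 87.0 and 86.0 in tenotomy, and 85.0 and 231.8 in uninjured libraries. Endothelial cells are a known site of Smad6, Smad7 and Id1 expression. Of 12 endothelial markers 0 were higher and 2 lower, Kdr and Flt1, with sums of 90.4 to 104.3 CPM in contralateral, 80.9 and 71.4 in tenotomy, and 90.2 and 100.1 in uninjured libraries. Among them, Vwf was at 5.66, 4.95 and 12.7 CPM in contralateral, 15.7 and 3.73 in tenotomy, and 18.2 and 4.23 in uninjured libraries. Of the 12, 6 lay lower in both tenotomy libraries than in all contralateral ones (31.8% of all genes), and 0 lay higher (31.9%). Of the 7 proliferation genes, 6 were tested and 6 were higher (2.01 to 2.32 CPM in contralateral, 14.6 and 13.7 in tenotomy, and 11.1 and 2.06 in uninjured libraries). The 9 tendon markers do not settle the tendon label, and type I collagen genes made up most of their sum. All 9 were detected in every library, with 15 to 52 counts for the regulator Scx. Of these 5 were higher at the tenotomy site, with sums of 977.4 to 1394 CPM in contralateral, 4933 and 4949 in tenotomy, and 4559 and 4116 in uninjured libraries. Of the 9, 4 lay lower in all contralateral libraries than in both uninjured ones (16.6% of all genes), and 0 lay higher (18.9%). The part of these cell types in the differences of the Smads was not tested.

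Genes around the Smads in the pathway were read in 6 lists, 49 genes of which were tested, and 19 passed between tenotomy and contralateral tendon, 11 higher and 8 lower. The counts below stand beside 29.0% of all genes called in this comparison, 13.6% higher and 15.4% lower, and a median log2 fold change of -0.0012. Of 7 target genes of the TGF-β branch, 4 rose over contralateral tendon and 0 fell, with a median log2 fold change of 1.06. Snai1, which encodes a transcriptional repressor, went from 0.300, 0.398 and 0.340 to 1.09 and 1.47 CPM (1.85 in log2, SE 0.38; edgeR adjusted p = 0.0167). Its uninjured values were 0.719 and 0.275 CPM. The matrix protein gene Tgfbi rose by 1.42 in log2, and Pmepa1, whose product dampens TGF-β signalling, rose by 1.06 (edgeR adjusted p = 0.0167 for both).

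Of 8 BMP-branch targets beside Id1 and Id3, 7 were tested, 0 rose and 1 fell, with a median log2 fold change of -0.23. The gene that fell, Atoh8, encoding a basic helix-loop-helix factor, went from 0.787, 1.05 and 0.928 to 0.381 and 0.400 CPM (-1.24 in log2, SE 0.30; edgeR adjusted p = 0.0227). Id2 and Id4, the remaining Id genes, had log2 fold changes of 0.43 and 0.13 (edgeR adjusted p = 0.244 and 0.686).

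Of 10 corepressors and coactivators of Smads in the nucleus, 9 were tested, 4 rose and 1 fell, with a median log2 fold change of 0.60. The corepressor Tgif1 rose by 1.46 on the log2 scale and the corepressor Skil by 0.94 (edgeR adjusted p = 0.0194 and 0.0167). Tob1, a growth inhibitor that binds Smads, was lower by a log2 value of -1.33 (edgeR adjusted p = 0.0336).

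Of 16 enzymes and anchors that act on Smad proteins, 1 rose and 5 fell, with a median log2 fold change of -0.28. Wwp2, a ubiquitin ligase, rose by 1.71 on the log2 scale, from 2.77, 3.36 and 2.51 to 9.95 and 8.90 CPM. The deubiquitinase Usp15 (log2 fold change -1.46) and the ubiquitin ligase Wwp1 (-1.21) were lower. Of 7 type I receptors that phosphorylate Smads, 0 rose and 1 fell, Acvr1c, at -1.48 in log2 (edgeR adjusted p = 0.0447). Of the 3 E proteins, the dimerization partners that Id proteins bind, 2 rose and 0 fell. Tcf3 rose by 0.75 and Tcf12 by 0.52 on the log2 scale (edgeR adjusted p = 0.0209 and 0.0463). No gene of the 6 lists passed when any contralateral or tenotomy library was left out, and none of all genes did. Without a contralateral library, 20 to 22 list genes had an unadjusted edgeR p-value under 0.05. Of all genes, 5413 to 6148 of the 15701 to 16060 tested did so.

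**Figure D4:**
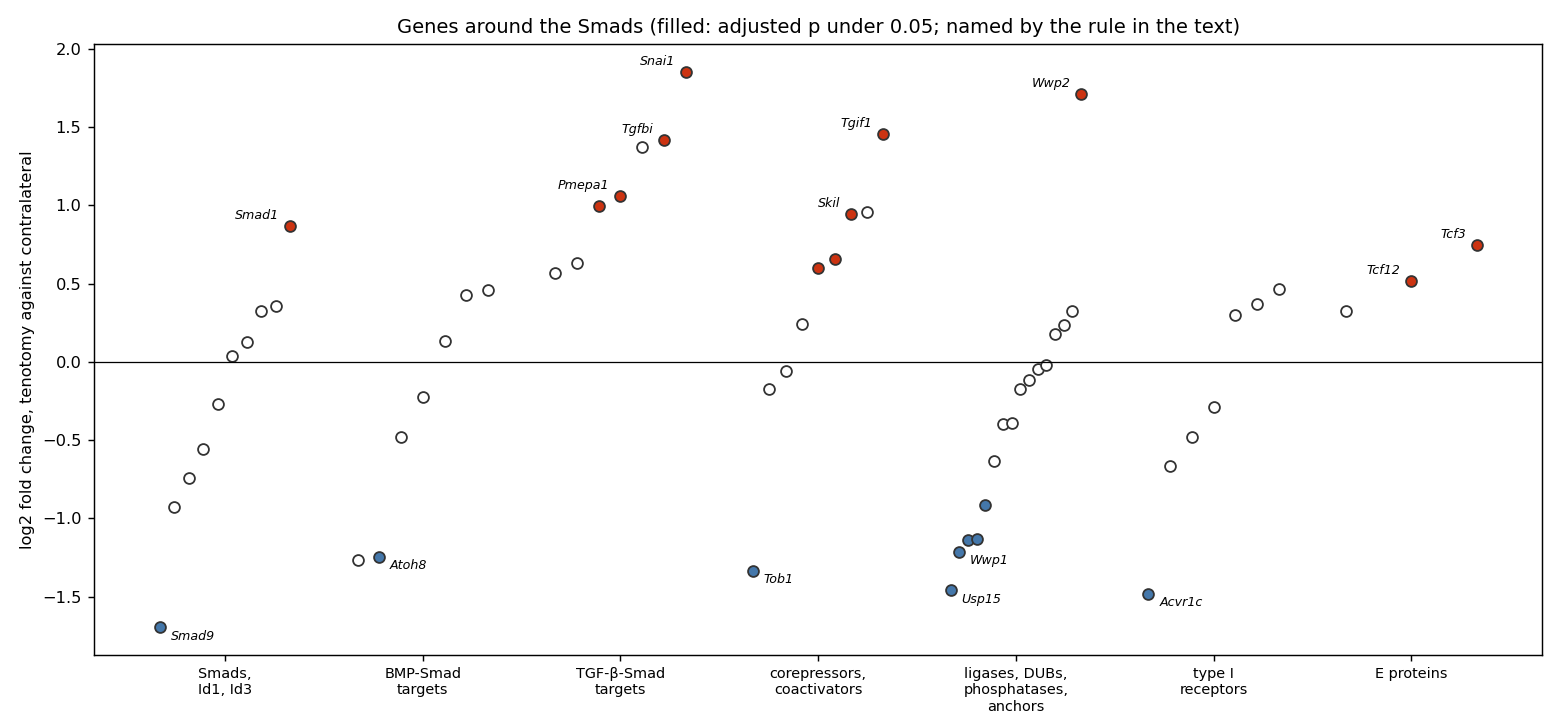
Log2 fold change of tenotomy over contralateral tendon for the Smads, Id1 and Id3 and for 6 lists of genes around them, in the fit of all 7 libraries. Each point is a gene, sorted within its list, and red and blue points passed an adjusted p-value of 0.05 as higher or lower. Snai1 (1.85) is the highest point and Smad9 (-1.69) the lowest.

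The genes whose levels followed a member most closely were sought among 2004 named genes with a mean log2 CPM of at least 3, by Pearson correlation of log2 CPM over the 7 libraries. Smad1 was followed most closely by Ski, which encodes a Smad corepressor (r = 0.99), and Mfge8 (0.99). Smad7 was nearest to Usp9x, which encodes a deubiquitinase that acts on Smad4 (r = 0.99), and Limd1 (0.99). Smad9 was nearest to Bod1l and Mylk (0.98 and 0.97), Smad6 to Tns2 and Iqsec1 (0.99 for both) and Id1 to Zmym2 and Mbp (0.99 and 0.98). Smad5 was nearest to Col11a2 and Cd9 (0.98 for both), Smad2 to Zcchc24 and Igfbp5 (0.99 and 0.96) and Id3 to Srsf11 and Zswim8 (0.99 for both). The nearest genes to Smad3 and Smad4 were Smarca4 and Tmem131, with an r of 0.92 each. Among the members, Smad1 and Smad5 ran together (r = 0.93), as did Smad6 and Id1 (0.92), whereas Smad2 and Smad7 ran opposite (-0.98), and so did Id1 and Id3 (-0.81). These values are a description, since the 7 libraries share the split described above and genes that differ along it correlate with each other.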

How the data were processed

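The samples were 7 RNA libraries of mouse hindlimb tendon, grouped by the condition label. Per the labels' protocols, RNA came from Trizol extraction followed by column clean-up, and TruSeq reagents were used for the libraries. The submitters' processing notes name FastQC 0.11.4 and kallisto. They give the build GRCh38, while the deposited IDs are mouse Ensembl transcripts. The authors deposited, per the file headers, estimated counts and TPM for 103639 transcripts, with length and effective length.

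Of these, 101510 matched GENCODE M21 (GRCm38) without version, which gave 42689 genes. Estimated counts were summed per gene and rounded. filterByExpr (minimum count 10) of edgeR 4.0.16 left 16028 features, and the 3 groups were compared in 1 quasi-likelihood fit of all 7 libraries (R 4.3.3, no covariate, prior count 2 for log2 CPM). The SE is the log2 fold change divided by the square root of F. TPM was used only as shares within a library, where any rescaling cancels, and as length-scaled TPM in an alternative. Title numbers fall in 3 series, which no label calls a batch. Tenotomy replicate 1 shares its series with the contralateral libraries, tenotomy replicate 2 with uninjured replicate 1. Replicate numbers follow accession order and pair nothing.

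On counts simulated for 15679 genes with 200 changed 4-fold at the tenotomy site, edgeR called 163 of them and 7 others against contralateral tendon. The simulation held no split between the uninjured libraries, and all members changed less than 4-fold in the fit of all 7 libraries. Its counts therefore do not give the power or error for the members. Alternatives were other scalings, DESeq2 1.42.0, limma-voom (limma 3.58.1), filters, transcripts, a series covariate and left-out libraries. Members and lists were chosen with earlier results of these data known. A gene of the TGF-β target list is not reported here and was left out of its counts. The rule for naming took the 10 members and, per list, at most 3 genes with the largest change among those past the threshold whose libraries did not overlap, and, per member, the 2 genes of highest correlation. Id2, Id4, Kdr, Flt1, Vwf, Matn1 and Scx are named outside it, chosen after their values were seen. Promoters came from RefSeq (GRCm38.p6). Windows of 6 members were used. Promoter sequences of Id1, Smad2, Smad4 and Smad7 are not used here.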

Additional observations from a re-analysis of the deposited data

How the results depend on the processing

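The count of 2 members between tenotomy and contralateral tendon was 1 with DESeq2, 1 with limma-voom and 7 with only these groups fitted. All genes went from 4643 to 7385, and the genes of the lists from 19 to 30, in that fit. Leaving out each library gave 0 to 6 members, 0 to 7336 of all genes and 0 to 31 list genes. The zeros came with any tenotomy or contralateral library left out. A group left with 1 library is assumed to vary like the others. Against uninjured tendon, all genes at the tenotomy site went from 0 to 145 with DESeq2 and 15 with no filter. Leaving out a library gave 0 to 3 members and 0 to 4275 genes. For contralateral against uninjured tendon the counts were 223 with DESeq2 and 337 with no filter, and 0 to 5 members and 0 to 5393 genes with a library left out. The cause was not tested.

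Signs of some log2 fold changes turned. With length-scaled TPM, the log2 fold change became -0.28 for Smad4 (tenotomy against contralateral), -0.74 for Smad3 and 1.00 for Smad7 (tenotomy against uninjured), and -0.23 for Smad3 and 0.044 for Id3 (contralateral against uninjured). Smad4 became -0.032 with the title series as covariate (tenotomy against contralateral), and at the tenotomy site against uninjured tendon Smad7 became 0.0036 with limma-voom and Id3 -0.033 with protein-coding transcripts. With a library left out, Smad4 (tenotomy against contralateral) ranged from -0.036 to 0.10. Against uninjured tendon at the tenotomy site, Smad2 ranged from -0.38 to 0.16, Smad3 from -0.049 to 0.17, Smad6 from -1.10 to 0.0090, Smad7 from -0.41 to 0.45 and Id1 from -0.89 to 0.39. For contralateral against uninjured tendon, Smad6 ranged from -0.18 to 0.93 and Id1 from -0.34 to 0.94. Within the series shared with the contralateral libraries, tenotomy replicate 1 differed from their mean by 0.76 (Smad1) and -1.47 (Smad9) in log2 CPM. The shares per length moved for Smad4 (18.7% to 13.1%) and Id1 (15.1% to 19.5%) with protein-coding transcripts only. The upper quartile scaling shifted the median of all genes by 0.11 on the log2 scale, and Smad5 then passed (edgeR adjusted p = 0.0448). The series covariate was not run against uninjured tendon, because the series of uninjured replicate 2 holds no other library. With that covariate, tenotomy against contralateral tendon rests on tenotomy replicate 1 alone. No paired analysis was possible because the labels carry no replicate numbers that tie libraries together. Low counts limit Smad9 and Smad6 most.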
